A study of Mus musculus with 4 samples.

Results

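Vascular endothelial cells were a rare population in these data from the mouse cardiogenic region at E10.5, 70 of 30415 barcodes. Whether they lined vessels of the heart or vessels near it was not tested. The cells were chosen by a rule on UMIs, the unique molecules counted in each cell. A barcode was kept with at least 1500 genes and at most 10% mitochondrial UMIs. Its levels were expressed as CP10K, UMIs per 10000 UMIs of that cell. It belonged to the endothelial gate when Pecam1, Cdh5, Ecscr, Tie1 and Plxnd1 together reached 4 CP10K, Tnnt2 was under 15 CP10K and the embryonic globin Hbb-y was under 500 CP10K. Of the 2907 cells in that gate, the 70 vascular cells had Cldn5 of at least 3 CP10K and no UMI of Npr3, Nrg1 or Nfatc1, 3 genes that mark endocardium. There were 25 and 16 in the control libraries 5 and 7, and 11 and 18 in the Tie2-cko libraries 6 and 8. No vascular barcode recurred in another library.

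Hearts were taken with the whole cardiogenic region at embryonic day E10.5 and profiled as 4 single-cell RNA-seq libraries, 2 of each genotype. Control embryos were Tie2 f/f, so both genotypes carried floxed Tie2 (gene symbol Tek). Tie2-cko embryos were Nfatc1Cre;Tie2 f/f, with a knock-in Nfatc1Cre that recombines in endocardium. The study describes peripheral vessels as spared for its own BAC transgenic Nfatc1Cre line and likens the pattern of that line to the knock-in. Embryos came from litters of mixed strain (129 with C57/BL6), included both sexes, and were matched for litter and somite stage, with 2 hearts of each genotype. It was not stated whether each library held 1 heart, so p-values below measure the spread between these libraries.

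The endocardium is the endothelium that lines the heart chambers, and the vascular endothelium lines vessels around and later within the heart wall. Both express the junction protein VE-cadherin (Cdh5) and the receptor TIE2, which binds angiopoietins and signals through PI3K and AKT to the transcription factor FOXO1. At this stage veins, arteries and sinusoids already differ in transcription factors, Notch components and receptors for VEGF and apelin, while the endocardium carries the cardiac GATA, TBX20 and HAND2 factors and secretes matrix that supports trabeculae.

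The vascular cells varied widely in depth. Their median was 15262 UMIs in library 5, 10590 in library 7, 51465 in library 6 and 9240 in library 8, with a range of 4319 to 91464 over all 70. Library 6 was the deep one, with 6 of the 8 vascular cells above 50000 UMIs. Libraries 5 and 6 also held the kinds of vascular cell in other proportions than libraries 7 and 8, as given with the subclusters. For the 26 of the 70 with fewer than 10000 UMIs, the absence of Npr3, Nrg1 and Nfatc1 was an absence at low depth. The 8 cells above 50000 UMIs lacked these genes as well. Just inside the Cldn5 limit, the 5 lowest cells had 3.0 to 3.21 CP10K, and the 5 highest cells outside it had 2.77 to 2.87 CP10K. Of the 128 Cldn5-high cells, 58 held a UMI of the 3 endocardial genes and are called Cldn5-high endocardial below, although 24 of them held a single such UMI. The other 2402 endocardial cells had Cldn5 under 3 CP10K and are called Cldn5-low endocardial. Their mean levels of the hyaluronan-binding link protein Hapln1 were 6.6, 7.68, 7.37 and 6.54 CP10K in libraries 5 to 8, against 1.94, 1.36, 2.01 and 0.630 in the Cldn5-high endocardial cells and 1.82, 1.86, 1.19 and 1.05 in the vascular cells. By this gene the Cldn5-high endocardial cells lay with the vascular cells and apart from the Cldn5-low endocardium. Of the 22 endocardial markers, 8 had a mean of at least 0.5 CP10K in these or in the vascular cells. In vascular cells 6 of the 8 were lower in every library (13.6% of all genes were), as given with that comparison. The 22 markers summed to 9.96, 7.52, 13.7 and 10.9 CP10K in the Cldn5-high endocardial cells of libraries 5 to 8. In the Cldn5-low ones they summed to 26.2, 28.3, 26.5 and 26.5 CP10K. The Cldn5-high endocardial cells were kept as the comparator of the literal gate, and the endocardial cells at any Cldn5 level, 2460 in all, were set beside them.

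The given vascular markers were Cldn5, Clec1b, Emcn and Ecscr, of which the rule used Cldn5 and Ecscr. Clec1b, a C-type lectin receptor, was at 3.62 and 0.861 CP10K in the control vascular cells and at 2.58 and 2.12 in the Tie2-cko ones. It was at 0.177 and 0.0651 in control Cldn5-low endocardium and at 0.359 and 0.15 in the mutant one, so the ranges of both populations did not overlap. Cldn5-high endocardial cells had 2.09 and 0.540 CP10K in control and 1.78 and 1.19 in the Tie2-cko libraries, within each library below the vascular cells but with overlapping ranges. A Clec1b UMI was present in 50 of the 70 cells. Emcn, the surface sialomucin endomucin, was found in 68 of 70 cells, at 5.47 and 7.82 CP10K in control and 3.51 and 10.41 in Tie2-cko vascular cells. Emcn did not separate the populations in every library, since Cldn5-low endocardium had 3.85 CP10K in library 6, above the vascular cells of that library. Endothelial genes outside the rule were abundant, among them Egfl7, a secreted endothelial factor, at 7.91 to 9.10 CP10K and the VEGF receptor Kdr at 0.991 to 4.78 CP10K.

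Markers of other cells were mostly low. Ptprc, the pan-leukocyte antigen, had no UMI in the 70 cells, and 7 of the 10 macrophage markers were at 0 throughout. The 10 macrophage genes summed to 0.0697, 0.244, 0.202 and 0 CP10K in libraries 5 to 8, and Mrc1 was the most abundant of them. The 10 cardiomyocyte genes summed to 20.2, 11.5, 38.4 and 31.0 CP10K, led by Myl7, against 604 to 634 CP10K in cells with Tnnt2 of at least 15 CP10K. The same sum was 22.4, 15.2, 29.6 and 30.7 CP10K in Cldn5-low endocardium, so cardiac transcripts were present at about the same level in both endothelial populations. The lymphatic regulator Prox1 was found in 3 cells and the hepatocyte gene Alb in none, while Afp had UMIs in 17 cells, 10 of them in library 5 and 5 in library 6.

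**Figure D1:**
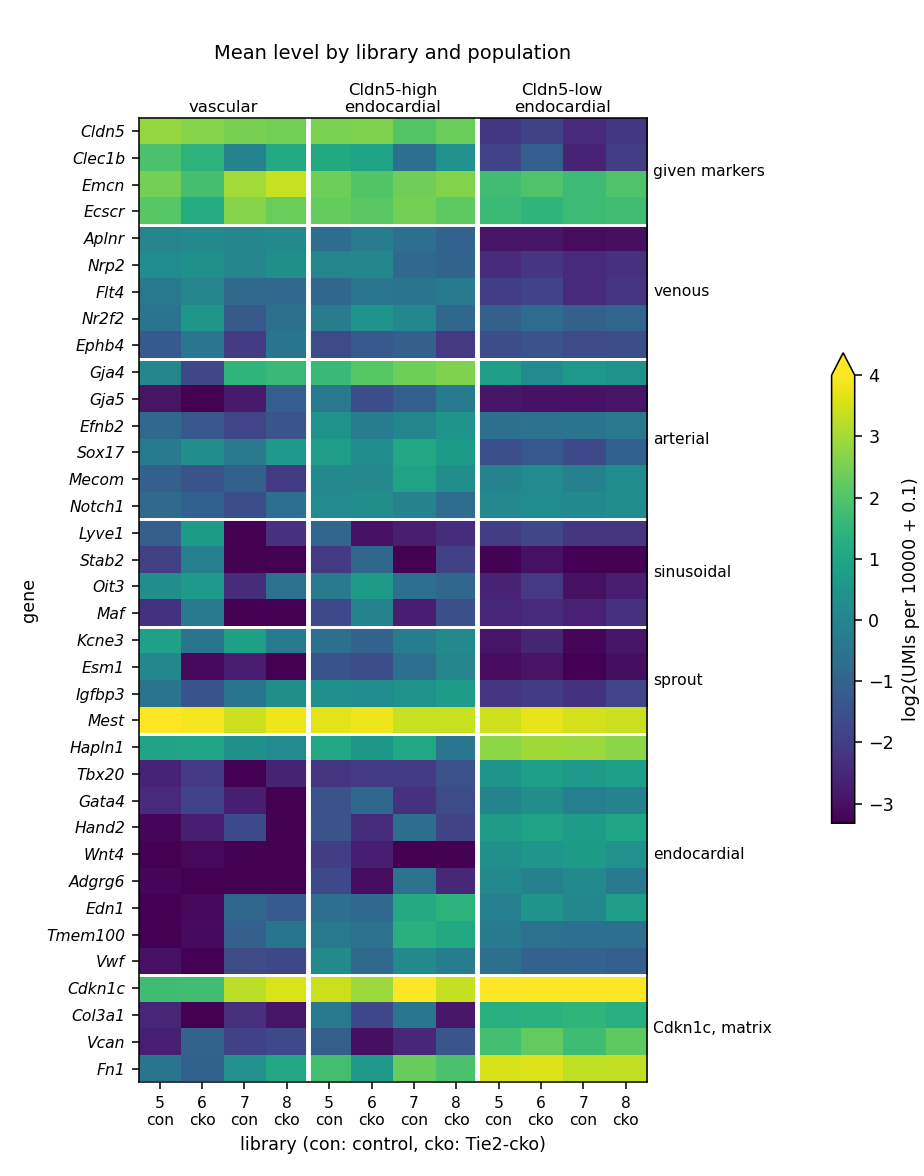
Mean level of selected genes in the vascular, Cldn5-high endocardial and Cldn5-low endocardial cells of each library, as log2 of CP10K plus 0.1, with rows grouped by known role. Most endocardial rows are dark in the vascular columns and bright in the Cldn5-low endocardial columns, while Aplnr, Nrp2 and Clec1b run the other way.

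Vascular and endocardial cells were compared within each library to describe how the vascular identity differed, without a test, since the rule chose the cells on genes of these libraries. Against endocardial cells at any Cldn5 level, 29 of 3137 genes were at least 2-fold higher in every library (0.924%), 28 of them outside the rule, and 112 were at least 2-fold lower in every library (3.57%), 109 outside the rule. Folds were taken after adding 0.1 CP10K, over genes with a mean of at least 0.5 CP10K in either population, which understates changes of low genes. A gene high in 1 population alone passes this filter, which favours folds in that direction, so the list counts below are descriptive. The higher group was led by Aplnr, Clec1b and Nrp2 and the lower one by Col3a1, Wnt4 and Vcan.

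Aplnr, the apelin receptor of venous and sprouting endothelium, stood first, by its smallest fold over the libraries. The gene lies at chr2:85136225-85139923 on the plus strand of GRCm38. It was at 0.907 and 0.943 CP10K in control and 0.991 and 1.03 CP10K in Tie2-cko vascular cells. Endocardial cells had 0.0514 and 0.0235 CP10K in control and 0.0624 and 0.0303 CP10K in the Tie2-cko libraries. Vascular levels were nearly equal in the 4 libraries and far above every level of endocardial cells at any Cldn5, with a mean log2 difference of 2.92 (2.73 to 3.12 over libraries). Nrp2, a co-receptor for VEGF-C, followed the same pattern, at 1.08, 1.19, 0.906 and 1.14 CP10K in vascular cells of libraries 5 to 8 against 0.117, 0.156, 0.0849 and 0.114. Its mean log2 difference was 2.44. Flt4, the VEGF-C receptor VEGFR3, was at 0.682, 0.907, 0.482 and 0.470 against 0.168, 0.194, 0.0882 and 0.126 CP10K. All these receptors were thus several times higher than in endocardial cells at any Cldn5, in both genotypes. That distance did not hold against the Cldn5-high endocardial cells, where Flt4 was at 0.439, 0.635, 0.6 and 0.694 CP10K, above the vascular level in libraries 7 and 8.

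Of the other venous genes, Nr2f2, the transcription factor COUP-TFII that specifies veins, was less uniform, at 0.606, 1.37, 0.315 and 0.550 CP10K in vascular and 0.372, 0.490, 0.376 and 0.422 CP10K in Cldn5-low endocardial cells. In library 7 its order was turned. Ephb4, the venous receptor for ephrin-B2, was at 0.324, 0.633, 0.146 and 0.613 CP10K in vascular cells, again lowest in library 7. Over the venous list, 6 genes outside the rule passed the level filter, and 3 of them were higher in every library (21% of all genes were). Another, the endocytic adaptor Dab2, was lower (25.1% were). The median log2 difference of the 6 was 1.19 beside −0.02 over all genes.

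The remaining genes of the 12 with the largest consistent folds included Kcne3, a potassium channel subunit. Its vascular level was 1.73 and 1.71 CP10K in control and 0.601 and 0.712 in Tie2-cko cells. Endocardial cells at any Cldn5 had at most 0.0825 CP10K. Cldn5-high endocardial cells also held Kcne3, on 37, 22, 10 and 71 UMIs in libraries 5 to 8, with 40 of the 71 in 1 cell. Vascular cells held 80, 36, 26 and 26. Tcf15, a transcription factor of capillary endothelium, was at 1.16, 0.532, 1.00 and 1.29 CP10K in libraries 5 to 8 and at most 0.0839 in endocardial cells. Mfng, a glycosyltransferase that modifies Notch receptors, was at 1.02, 0.661, 1.04 and 1.13 CP10K against 0.106 to 0.185. In every library, Kcne3, Tcf15 and Mfng were higher in vascular cells than in endocardial cells at any Cldn5. Both Tie2-cko levels of Kcne3 in vascular cells lay below both control levels, as for 11.3% of all genes. Its genotype test in vascular cells gave no unadjusted p under 0.05 by edgeR. In library 7, 14 of the 26 vascular Kcne3 UMIs lay in 1 cell. N4bp3, Tmem255a, Tnfaip8l1, Arhgap18 and Fam167b completed the 12, with smallest log2 differences of 1.75, 1.74, 1.63, 1.57 and 1.49. Farther down the same group stood the arterial and endothelial factor Sox17 at 0.704, 1.13, 0.675 and 1.42 CP10K, the glucose transporter Slc2a1 at 1.15, 0.898, 0.751 and 1.29 CP10K, and the lactate transporter Slc16a3 at 1.21, 2.23, 0.839 and 1.04 CP10K. Their endocardial levels stayed at or below 0.412, 0.388 and 0.511 CP10K. Of the arterial list 8 genes passed the level filter, with a median log2 difference of −1.03. In every library 1, Sox17, was higher (21% of all genes were) and 4 were lower (25.1% were).

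Genes of the endocardial programme were low or missing in vascular cells. Of the 22 endocardial markers, 16 outside the rule passed the level filter, 13 were lower in every library (25.1% of all genes were) and 12 at least 2-fold lower in every library, with a median log2 difference of −2.59. None of the 16 was higher in every library. Genes such as Tbx20, Hand2 and Gata6 passed the filter through the endocardial cells alone, so these counts describe the populations and test nothing. Tbx20, a T-box factor required for heart growth, was at 0.0610, 0.138, 0 and 0.0619 CP10K in vascular cells against 1.24, 1.61, 1.43 and 1.61 in endocardial cells. Hand2, a basic helix-loop-helix factor of the developing heart, was at 0.00703, 0.0546, 0.212 and 0 CP10K against 1.5, 1.69, 1.5 and 1.85, and Gata6 at 0.0958, 0.0920, 0.209 and 0 against 1.48, 1.72, 1.38 and 1.86. Wnt4, a ligand made by endocardium, had UMIs in vascular cells of library 6 only, at 0.0108 CP10K, and stood at 1.13 to 1.48 CP10K in endocardial cells. Adgrg6, an adhesion receptor needed for trabeculation, was at 0.00848 CP10K in library 5 and 0 in the other libraries, against 0.701 to 1.03 CP10K. For all these genes, each library's vascular level lay below every endocardial level.

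The matrix genes Vcan, Fn1 and Col3a1, which form no fixed list and of which Fn1 was chosen after its values were seen, were lower in vascular cells too. Vcan, the proteoglycan versican of the cardiac jelly, was at 0.0557 and 0.170 CP10K in control and 0.398 and 0.209 CP10K in Tie2-cko vascular cells, against 3.27 and 3.17 in control and 4.43 and 4.38 in Tie2-cko endocardial cells. Fn1, fibronectin, was at 0.623, 0.383, 1.21 and 2.04 CP10K against 11.3, 11.64, 9.66 and 9.79. Col3a1, a fibrillar collagen, was at 0.0709, 0, 0.0997 and 0.0344 against 2.23 to 2.65 CP10K. Vascular cells and endocardial cells at any Cldn5 were apart in every library for each of the 3 genes. Low Col3a1 was not particular to vascular cells. Cldn5-high endocardial cells had 0.682, 0.199, 0.637 and 0.0394 CP10K in libraries 5 to 8, close to the vascular level in library 8. The remaining genes of the 12 with the largest consistent decreases were Mical2, Ccdc80, Tmem108, Thbs1, Tm4sf1, Pdlim3 and Cdo1, and the last had no UMI in any vascular cell.

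Genes regulated by flow and by BMP signals were also lower than in endocardial cells at any Cldn5. Of the flow list, 5 of 6 genes outside the rule were lower in every library, beside 25.1% of all genes. Their median log2 difference was −1.62. The flow result did not hold against the Cldn5-high endocardial cells. There none of 4 flow genes outside the rule was lower in every library, beside 13.6% of all genes (median −0.69). Cdkn1c, the cyclin-dependent kinase inhibitor p57, was at 3.24 and 9.62 CP10K in control and 3.27 and 11.9 in Tie2-cko vascular cells, against 83.1 and 77.4 in control and 87.9 and 53.8 in Tie2-cko Cldn5-low endocardium. The shear-stress factor Klf2 was at 0.794, 0.852, 1.53 and 2.33 CP10K against 4.08, 4.45, 4.39 and 5.30. In the list of BMP and ALK1 components, 7 of 8 genes were lower in every library, beside the same 25.1% (median −1.36, against −0.02 over all genes). Its lower members included the co-receptor Eng, at 1.42, 1.1, 0.786 and 1.04 CP10K against 3.0, 3.29, 2.19 and 2.82 in Cldn5-low endocardium, and the inhibitory Smad7, at 0.350, 0.453, 0.0517 and 0.0109 against 1.18, 1.61, 1.15 and 1.57. The exception among the BMP receptors was Acvrl1, encoding ALK1, which was below the level filter. It was at 0.508, 0.373, 0.356 and 0.274 CP10K in vascular cells and 0.0625, 0.0692, 0.0483 and 0.0436 CP10K in Cldn5-low endocardium, and thus higher in vascular cells of every library.

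Against the Cldn5-high endocardial cells far fewer genes stood apart. No gene of 3024 was at least 2-fold higher in every library (0%), while 322 were higher by any amount in all of them (10.6%). There were 8 genes at least 2-fold lower in every library (0.265%), and of these 7 lay outside the rule, namely Edn1, Tmem100, Vwf, Isl1, Gata6, Mecom and Efnb2. Edn1, the vasoconstrictor endothelin-1, was at 0, 0.0108, 0.457 and 0.326 CP10K in vascular cells of libraries 5 to 8 against 0.538, 0.470, 2.15 and 2.56. Tmem100, a target of ALK1 signalling in arteries and endocardium, was at 0, 0.0154, 0.370 and 0.621 CP10K against 0.672, 0.577, 2.41 and 2.07. The vascular values of both genes were near 0 in libraries 5 and 6 and higher in libraries 7 and 8, and within each library they were below the Cldn5-high endocardial value.

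The lower genes included arterial ones. Efnb2, the arterial ligand ephrin-B2, was at 0.466 and 0.186 CP10K in control and 0.3 and 0.28 in Tie2-cko vascular cells, against 1.26 and 0.918 in control and 0.756 and 1.28 in Tie2-cko Cldn5-high endocardial cells. The arterial connexin Gja4 was at 0.906, 0.197, 2.69 and 2.96 CP10K against 3.02, 4.19, 5.16 and 5.95. Of 8 arterial genes past the level filter, 6 were lower in every library (13.6% of all genes were) and none was higher in all of them, with a median log2 difference of −1.39 beside −0.01 over all genes. All 7 BMP and ALK1 genes past the filter were lower too (median −1.12), among them the BMP target Id1, at 1.15, 1.25, 0.855 and 1.75 CP10K against 1.76, 2.61, 6.70 and 5.40. Aplnr and Nrp2 were higher in vascular cells of every library but by less, Aplnr being at 0.518, 0.737, 0.540 and 0.395 CP10K in Cldn5-high endocardial cells. Endocardial markers outside the rule differed about as much. Of 8 past the level filter, 6 were lower in every library (13.6% of all genes were) and 4 at least 2-fold lower in all of them (0.265%). None was higher in all of them, and the median log2 difference was −1.26. Thus members of the arterial, BMP and endocardial lists were lower in the cells without Npr3, Nrg1 and Nfatc1 UMIs than in Cldn5-high cells with them. Genes such as Efnb2, Mecom and Gata6 passed the level filter through the Cldn5-high endocardial cells alone. That favours a lower vascular level, so these counts are descriptive. The 2 groups also differed in depth, the Cldn5-high endocardial cells having medians of 22608, 30972, 15994 and 14414 UMIs, and the part of depth in these differences was not tested.

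The share of vascular cells gave no difference between genotypes that this design could show. They were 0.277% and 0.201% of the barcodes past the limits in control and 0.246% and 0.201% in the Tie2-cko libraries, with 95% Wilson intervals, which cover counting error only, of 0.188 to 0.409%, 0.124 to 0.326%, 0.138 to 0.440% and 0.127 to 0.317% in the same order. Means were 0.239% ± 0.0540 in control and 0.224% ± 0.0321 in Tie2-cko hearts (SD, n = 2 libraries each; exact permutation test, two-sided, p = 0.667), and 0.333 is the smallest p that 2 against 2 libraries allow. Among the cells of the endothelial gate they were 3.58% and 1.6% in control and 3.56% and 2.0% in the Tie2-cko libraries. Libraries 5 and 6 had the higher share and libraries 7 and 8 the lower one, so the split ran across the genotypes.

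Tek encodes TIE2, the floxed receptor (chr4:94739289-94874976 on the plus strand of GRCm38), and played no part in the rule. In vascular cells its mean level was 0.599 and 0.829 CP10K in the control libraries 5 and 7 and 0.626 and 0.455 CP10K in the Tie2-cko libraries 6 and 8. One mutant value lay between the control values and the other below them, so the genotypes overlapped, with 0.714 ± 0.163 CP10K in control and 0.541 ± 0.121 in Tie2-cko cells (SD, n = 2 libraries each), 75.7% of control. These levels rested on 31, 16, 34 and 9 Tek UMIs. Which exons are floxed is not given in the sources used here, and the library kits are named by part number without the transcript end read. Transcripts of a recombined and of an intact allele therefore cannot be told apart in any population. In the edgeR quasi-likelihood test the log2 fold change was −0.44 (SE 0.40) with a Benjamini-Hochberg adjusted p of 1.00. It lay between −0.82 and −0.18 with each library left out in turn.

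In Cldn5-low endocardium Tek was at 0.840 and 1.31 CP10K in control and 0.319 and 0.241 CP10K in the Tie2-cko libraries. Both mutant values were below both control values, at 26.0% of the control mean. Its log2 fold change was −1.99 (SE 0.21), yet its adjusted p in edgeR was 0.651 over 12621 genes. With libraries 5 and 6 set as a block against 7 and 8, a split known from earlier results of these data, it was −1.97 (SE 0.12) and passed, at an adjusted p of 2.52e-09 in edgeR. The same block left the vascular change at −0.36 (SE 0.36, adjusted p = 0.997 in edgeR). For endocardial cells at any Cldn5 level the change was −1.92 (SE 0.21, unadjusted p = 7.4e-05, adjusted p = 0.942 in edgeR), while DESeq2 on the same sums gave an adjusted p of 1.47e-13 and the block in edgeR one of 0.00123. In that edgeR fit no gene of 12680 passed (0%), and 533 had an unadjusted p under 0.05 (4.2%). Leaving out each library in turn kept this log2 change between −2.18 and −1.61, and it passed without library 8 (−1.81, adjusted p = 0.00891 in edgeR). Cldn5-low cells without the 3 endocardial genes had the same pattern, with 0.598 and 0.945 CP10K in control and 0.249 and 0.201 CP10K in the Tie2-cko libraries.

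By mean Tek level the Cldn5-high endocardial cells did not follow the Cldn5-low ones. Their Tek level was 0.522 and 0.851 CP10K in control and 0.913 and 0.488 CP10K in the Tie2-cko libraries, so the genotypes overlapped fully, and the log2 fold change was −0.14 (SE 0.40) with an adjusted p in edgeR above 0.05. The difference in genotype effect between vascular and Cldn5-high endocardial cells was −0.30 on the log2 scale (SE 0.51, adjusted p = 1.00 for the edgeR interaction).

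The same interaction against endocardial cells at any Cldn5 level was 1.37 (SE 0.42) in log2 units, the positive sign standing for a smaller decrease in vascular cells, with an unadjusted p of 0.00101 and an adjusted p of 0.376 over 12189 genes in edgeR, and so did not pass. With the Cldn5 limit at 2 CP10K it was 1.64 and passed, at an adjusted p of 0.0164. When all 128 Cldn5-high cells were joined and set against Cldn5-low endocardium, a comparison chosen after the values were seen, the difference was 1.57 (SE 0.30, adjusted p = 0.000381 in edgeR), and Tek was among 28 of 12281 genes that passed (0.228%). It lost the threshold without library 6 (adjusted p = 0.564), with DESeq2 (0.640), with a Cldn5 limit of 5 CP10K (0.0789) and when cells above 50000 UMIs were left out (0.0957), and it was positive in each of these fits.

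**Figure D2:**
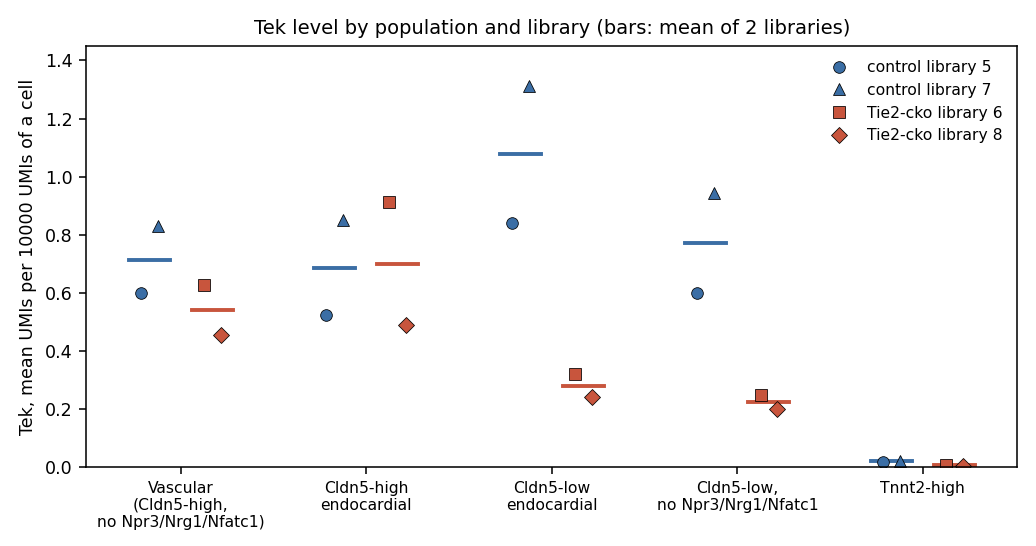
Mean Tek level in CP10K for 5 populations, one point per library, with control and Tie2-cko libraries marked apart and bars at the genotype means. Control and Tie2-cko points are apart in the Cldn5-low populations and intermixed in the vascular and Cldn5-high endocardial cells.

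**Figure D3:**
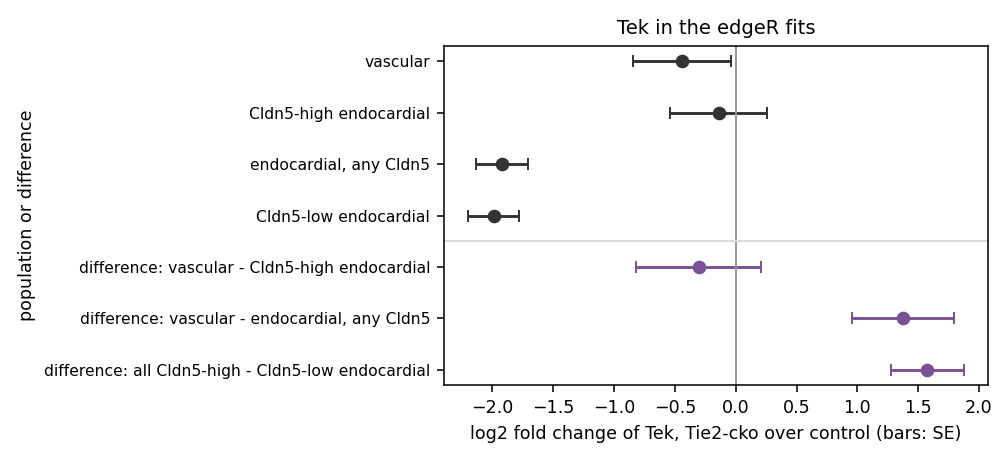
Log2 fold change of Tek, Tie2-cko over control, in each edgeR fit, and the differences between populations, with bars for 1 SE. The vascular and Cldn5-high endocardial values are −0.44 and −0.14, and the Cldn5-low endocardial value is −1.99.

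The share of cells with a Tek UMI ordered the vascular libraries differently from the mean level. They were 14 of 25 and 7 of 16 vascular cells in the control libraries 5 and 7, and 10 of 11 and 8 of 18 in the Tie2-cko libraries 6 and 8. After thinning every cell to 5500 UMIs, which left out 2, 1, 1 and 1 vascular cells of libraries 5 to 8, the shares were 17.4% and 33.3% in control and 30% and 23.5% in Tie2-cko vascular cells. Thinned Cldn5-low endocardium had 31.7% and 44.3% in control and 13.3% and 9.03% in the Tie2-cko libraries. Thinned Cldn5-high endocardial cells had 33.3% and 28.6% in control and 36.4% and 18.8% in the Tie2-cko libraries. Cells with high Tnnt2, which should lack Tek, had at most 0.926% after thinning and at most 3.86% before it, below the vascular shares in every library. At 5500 UMIs the vascular shares of both genotypes overlapped, as did the Cldn5-high endocardial ones. Thinning to 3000 UMIs, which left out no cell, gave vascular shares of 20% and 18.8% in control and 27.3% and 22.2% in Tie2-cko libraries. Both mutant vascular shares then lay above both control ones, on 3 to 5 cells with a Tek UMI per library. Cldn5-high endocardial shares were 21.7% and 25% in control against 9.09% and 6.25%, on 1 to 5 cells, so both mutants lay below. Each share came from 1 random draw per cell. In library 8 at 5500 UMIs, 4 vascular and 3 Cldn5-high endocardial cells held a Tek UMI. A separate draw from the same cells joined gave 10. No conclusion is therefore drawn from the order of the vascular or the Cldn5-high endocardial shares. Cldn5-low shares did not overlap at either depth.

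Other genes of the TIE pathway were measured beside Tek. Tie1, the orphan partner receptor that the rule used, was at 0.577 and 0.485 CP10K in control and 0.7 and 0.76 in Tie2-cko vascular cells. Ptprb, the phosphatase VE-PTP that restrains TIE2, was at 0.310 and 0.139 in control and 0.317 and 0.445 in Tie2-cko cells, and Akt1, the kinase downstream, at 0.596 and 0.659 against 0.664 and 0.669. For Ptprb and Akt1, 2 of the 4 pathway genes tested that the rule did not use, both Tie2-cko values were above both control values, if only narrowly, and neither they nor Tie1 passed the test. Over all genes 13.4% had both Tie2-cko libraries above both control libraries. Foxo1 itself was at 0.2 and 0.0654 CP10K in control and 0.342 and 0.0752 in Tie2-cko vascular cells, with overlapping groups.

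No gene of 4338 passed an adjusted p of 0.05 between genotypes in the vascular cells by edgeR (0%), with 57 at an unadjusted p under 0.05 (1.31%), and 28 passed with the block for libraries 5 and 6, of which 8 were higher and 20 lower in Tie2-cko cells. DESeq2 on the same sums called 3, Hbb-y, Hba-x and Hbb-bh1, all embryonic globins. Hbb-y, which the rule also used, was at 32.6 and 19.5 CP10K in control and 5.64 and 6.82 in Tie2-cko vascular cells, a log2 fold change of −1.91 (SE 0.23, adjusted p = 0.0988 in edgeR). Globin transcripts were lower in both Tie2-cko libraries, and not in vascular cells alone. The red cell list summed to 70.9, 11.5, 40.5 and 16.0 CP10K in vascular cells and to 66.0, 15.2, 30.9 and 12.4 in Cldn5-low endocardium of libraries 5 to 8, and to 91.9, 26.5, 41.3 and 13.0 in cells with high Tnnt2. The part of globin transcript in other differences between genotypes was not tested. In the Cldn5-high endocardial cells 4 of 4825 genes passed (0.0829%), the globins Hba-x, Hbb-y, Hbb-bh1 and Hba-a1, with log2 fold changes of −2.29, −2.12, −2.13 and −2.42, and 15 passed with the block.

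No gene of mitosis passed in vascular cells. Of 16 tested, 7 had both Tie2-cko libraries above both control libraries (13.4% of all genes did) and none had both below (11.3%). An unadjusted p under 0.05 by edgeR was reached by 3 (1.31% of all genes). The median log2 fold change of the 16 was 0.49 beside 0.01 over all genes. Nusap1, a spindle protein, was at 0.539 and 0.416 CP10K in control and 1.40 and 0.876 CP10K in Tie2-cko cells (log2 fold change 1.18, SE 0.37, edgeR adjusted p = 1.00). Of the S phase list 14 were tested, 3 had both mutant libraries below both control libraries (Mcm3, Rrm2 and Slbp), beside the 11.3% of all genes, and none above. Of the venous list 7 were tested, and 4, Aplnr, Dab2, Ephb4 and Nrp2, had both mutant libraries above both control libraries, beside the 13.4% of all genes. No gene of these lists passed. Library 6 held 9 of the 16 cells of the subcluster with the highest Top2a, described with the subclusters, and the part of that makeup in the mitosis counts was not tested.

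The difference in genotype effect between vascular and Cldn5-high endocardial cells passed the edgeR interaction test for 3 of 5391 genes (0.0556%), Cdkn1c, Lyve1 and Timp3. Cdkn1c was at 3.24 and 9.62 CP10K in control and 3.27 and 11.9 in Tie2-cko vascular cells, against 10.55 and 23.0 in control and 7.44 and 10.1 in Tie2-cko Cldn5-high endocardial cells. In these endocardial cells 260 of the 376 Cdkn1c UMIs of library 7 and 256 of the 432 of library 8 lay in 1 cell each. Vascular values overlapped between genotypes while the endocardial ones were lower in both mutants (edgeR interaction log2 1.15, SE 0.23, adjusted p = 0.028). Lyve1, the hyaluronan receptor of sinusoidal and lymphatic endothelium, rested on 14, 0, 89 and 1 UMIs in vascular cells of libraries 5, 7, 6 and 8, with 37 of the 89 in 1 cell. None of the 3 passed without library 6 or with DESeq2.

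Against endocardial cells at any Cldn5 level, 15 of 12189 genes passed (0.123%). Those named here had both Tie2-cko libraries on one side of both control libraries in the difference of levels. They were the sprout genes Esm1 and Kcne3, the small heat shock protein Hspb1, the sarcomeric actin Actc1, and the proliferation genes Ube2c and Pclaf. The share of all genes separated in this way was not computed, so no conclusion is drawn from their number. Kcne3 was at 1.73 and 1.71 CP10K in control and 0.601 and 0.712 in Tie2-cko vascular cells, with an edgeR interaction log2 value of −2.11 (SE 0.47, adjusted p = 0.00963). It rested on 80, 36, 26 and 26 UMIs in libraries 5, 6, 7 and 8, of which 23, 18, 14 and 12 lay in 1 cell each. Ube2c, a ubiquitin-conjugating enzyme of mitosis, was at 3.83 and 3.6 CP10K in control and 8.16 and 6.25 in Tie2-cko vascular cells, with an edgeR interaction log2 value of 0.97 (SE 0.20, adjusted p = 0.00412). Esm1, a secreted proteoglycan of tip cells, had 39 and 1 UMIs in the control libraries 5 and 7 and 1 and 0 in the Tie2-cko libraries 6 and 8, so its value was that of 8 cells of library 5. The 15 calls fell to 2 without library 6 (Cdkn1c and Sat1), to 1 without cells above 50000 UMIs (Ube2c) and to 0 with DESeq2.

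The 70 vascular cells were not uniform. Clustering on variable genes other than those of the rule gave 3 subclusters of 30, 24 and 16 cells, described here without a test. The plot of subclusters by library shows that they were unevenly spread. Subcluster 1 held 3 and 13 cells of control libraries 5 and 7 and 0 and 14 of the Tie2-cko libraries 6 and 8. Subcluster 2 held 15 and 3 control cells and 2 and 4 Tie2-cko cells. Subcluster 3 held 7 cells of library 5 and 9 of library 6, 9 of the 11 vascular cells there, and none of libraries 7 and 8. Libraries 5 and 6 thus differed in vascular makeup from libraries 7 and 8, across the genotypes.

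**Figure D4:**
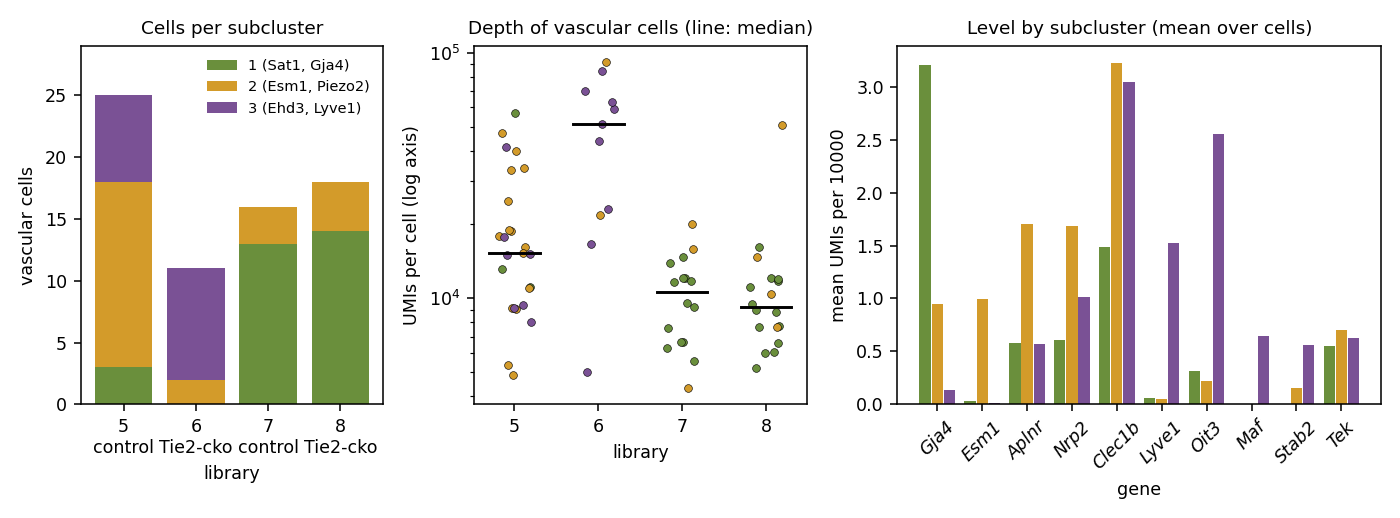
Left, vascular cells of each library by subcluster (stacked bars, number of cells). Middle, UMIs of each vascular cell on a log axis, with the median as a line. Right, mean level in UMIs per 10000 of 10 genes in each subcluster. Libraries 7 and 8 hold mostly subcluster 1, library 5 mostly subcluster 2 and library 6 mostly subcluster 3.

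Subcluster 1 was led by Sat1, which acetylates polyamines, and by Gja4. Sat1 rested on library 8, at 0.358, 0.647 and 6.43 CP10K in the subcluster 1 cells of libraries 5, 7 and 8 against 0.546 in all other vascular cells. Gja4 was at 0, 3.31 and 3.80 CP10K in the same libraries. It averaged 3.21 CP10K there, 0.944 in subcluster 2 and 0.135 in subcluster 3, and 10 of its 30 cells held a UMI. The other arterial connexin, Gja5, was found in 5 of the 30 cells and in no other vascular cell. Cdkn1c averaged 11.8 CP10K against 3.34 and 3.19, and Emcn 9.09 against 6.93 and 3.06, while the proliferation gene Top2a averaged 0.680 against 3.46 and 4.82. Its cells were the shallowest, with a median of 9531 UMIs, and also carried the most cardiomyocyte transcript, 35.0 CP10K over the list against 23.0 and 12.7. The part of depth and of cardiac transcript in this grouping was not tested.

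Subcluster 2 was led by Esm1, the mechanosensitive channel Piezo2 and the protease inhibitor Timp3, although Esm1 was present in 8 of 24 cells, all of library 5. Pdgfb, the ligand that recruits pericytes, averaged 0.920 CP10K there against 0.188 in the other cells. Aplnr, Nrp2 and Kdr were highest in it, Aplnr at 1.70 CP10K against 0.579 and 0.567 in subclusters 1 and 3, Nrp2 at 1.68 against 0.612 and 1.01, and Kdr at 4.45 against 1.17 and 4.03. Other receptors were not, as Ephb4 was at 0.214 CP10K against 0.352 and 0.796, and Flt4 at 0.849 against 0.3 and 0.864.

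Subcluster 3 was sinusoidal-like. Of its 10 leading genes 5 belonged to the sinusoidal marker list (Lyve1, Maf, Oit3, Gpr182 and Bmp2), of which Lyve1 is also a lymphatic and Gpr182 an endocardial marker. The list summed to 8.25 CP10K there and to 1.24 and 1.31 in subclusters 1 and 2. Lyve1 averaged 1.52 CP10K against 0.0640 and 0.0495, the sinusoidal protein Oit3 2.55 against 0.317 and 0.221, and the scavenger receptor Stab2 0.561 against 0 and 0.157. The transcription factor Maf was found in 7 of the 16 cells and in no other vascular cell. Nr2f2 was highest here, at 1.20 CP10K against 0.394 and 0.590, and Gja4 and Hey1 were lowest, Hey1 having no UMI. These cells had a median of 20476 UMIs, and Ptprc and Alb were at 0 in all of them. Of the sinusoidal list, Clec4g, Dnase1l3 and Fcgr2b had no UMI in any vascular cell. The list was not particular to vascular cells. It summed to 3.37, 6.70, 0.932 and 1.55 CP10K in the vascular cells of libraries 5 to 8. In the Cldn5-high endocardial cells it summed to 3.37, 5.47, 1.24 and 2.45 CP10K.

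A Gja4 UMI was present in 16 cells and an Aplnr UMI in 39, but both were found in 4. Gja4 without Aplnr was seen in 12 cells, Aplnr without Gja4 in 35 and neither in 19, counts that also depend on depth per cell. Subclusters differed less in Tek, which averaged 0.554, 0.697 and 0.623 CP10K. In the same subcluster, Tek was at 0.633 CP10K in the 7 sinusoidal-like cells of library 5 and 0.615 in the 9 of library 6, and in subcluster 1 at 0.864 in the 3 cells of library 5, 0.664 in the 13 of library 7 and 0.385 in the 14 of library 8. In subcluster 2, which had cells of every library, Tek was at 0.530 and 1.55 CP10K in 15 and 3 control cells and at 0.678 and 0.7 in 2 and 4 Tie2-cko cells, so the genotypes overlapped there. Without the sinusoidal-like cells, which left 2 vascular cells of library 6, the genotype change of Tek was −0.70 in log2 units (SE 0.52). In that fit 1 gene was called, Hbb-y (log2 −2.06, edgeR adjusted p = 0.0299), which the rule had also used, so no conclusion is drawn from it.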

How the data were processed

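Single-cell libraries were made from dissociated E10.5 hearts on the 10x platform. The authors deposited, per the file headers and labels, filtered matrices of UMI counts from Cell Ranger 6.1.2 on mm10, with no normalization and no cell annotation. The 4 files held 50436 barcodes and 169361996 to 259775540 UMIs per library. No doublets were removed, and the 1 vascular cell with a high Scrublet score was kept.

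UMI counts of each population were summed per library and tested between genotypes with edgeR 4.0.16 (TMM, filterByExpr, quasi-likelihood test, Benjamini-Hochberg over all genes tested) in R 4.3.3, and differences between populations as an interaction with the library as a block. The scripts were tested on simulated data. DESeq2 1.42.0, other normalization, filters, gates and comparators, and each library left out, served as alternatives. Levels are means of CP10K over cells. Subclusters came from scanpy 1.11.5 (Leiden, resolution 0.5). Gene positions are from GENCODE M21. Named were the genes of the rule, genes of 27 lists, the 12 with the largest consistent fold in each direction and up to 12 called genes in each direction whose Tie2-cko libraries lay on one side of both controls. The members and lists were chosen with earlier results of these data known.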

Additional observations from a re-analysis of the deposited data

Results flagged for a closer look

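The genotype effect differed between populations by the edgeR interaction test for the genes given here, each value being the log2 change in vascular cells minus that in the comparator. Against Cldn5-high endocardial cells these were Cdkn1c at 1.15, Lyve1 at 4.34 and Timp3 at −2.16. Timp3, an inhibitor of matrix metalloproteinases, was at 1.61 and 0.253 CP10K in control and 0.487 and 0.382 in Tie2-cko vascular cells, and 49 of the 94 UMIs of library 5 lay in 1 cell. For Cdkn1c, 1 cell each held 260 of 376 and 256 of 432 UMIs in Cldn5-high endocardial cells of libraries 7 and 8. None of these 3 passed without library 6.

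Against endocardial cells at any Cldn5 level, proliferation genes had positive values, Top2a 1.07, Ube2c 0.97, Hist1h1b 0.88 and Pclaf 0.85. Top2a, which untangles DNA in dividing cells, was at 2.62 and 0.951 CP10K in control and 6.50 and 1.57 in Tie2-cko vascular cells, so the genotypes overlapped. Fabp5, a fatty acid carrier, was at 1.05, with 6.95 and 2.89 CP10K in control and 12.4 and 2.83 in Tie2-cko vascular cells. Libraries 5 and 6 were high for both genes and libraries 7 and 8 low.

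Genes with negative values included Hspb1 at −1.81 and Kcne3 at −2.11, and the growth factor Mdk at −0.73. Tmsb4x, which binds actin, was at −0.66, with 69.0 and 83.3 CP10K in control and 24.9 and 106 in Tie2-cko vascular cells, where library 6 was the low one. The cardiac genes Actc1 at −0.90 and Myl7 at −0.79 and Timp3 at −1.95 followed. Myl7 was at 5.03 and 10.6 CP10K in control and 2.09 and 10.2 in Tie2-cko vascular cells, again lowest in library 6.

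For 3 genes the fitted value depends on the prior count and is no bound. Pf4 was at −8.70 on 3, 1, 1 and 0 vascular UMIs in libraries 5, 6, 7 and 8, and 7263 of the 7290 Pf4 UMIs in Cldn5-low endocardium of library 6 lay in 1 cell. Esm1 was at −6.45 on 39, 1, 1 and 0 UMIs. Rhox5 was at −10.24 on 19, 0, 1 and 0 UMIs, 16 of them in 1 cell.

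Tek was at 1.57 for all Cldn5-high cells against Cldn5-low endocardium, a comparison chosen after the values were seen. The part of library makeup and depth in these values was not tested.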

How the results depend on the processing

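The results rest on 70 vascular cells and 9 to 34 Tek UMIs per library, and the size of change detectable at this depth was not tested. Library 6 gave 529300 of the 1413147 vascular UMIs from 11 cells. Genotype calls in vascular cells, 0 by edgeR, were 3 with DESeq2, 13 with no filter on low counts, 28 with a block for libraries 5 and 6, 1 without the sinusoidal-like cells, 3 for all Cldn5-high cells and 0 to 37 with each library left out. Calls in Cldn5-high endocardial cells, 4, were 14 with no filter, 15 with the block, 2 to 26 with each library left out and 0 with at least 10000 UMIs, Cldn5 limits of 5 or 2 CP10K, Hbb-y under 50 CP10K, or endocardial cells at any or low Cldn5. Their Tek change turned to 0.50 at the Cldn5 limit of 5 and to 0.18 with at most 50000 UMIs (−0.53 to 0.15 with each library left out). The 3 interaction calls fell to 0 with DESeq2, RLE factors, at most 5% mitochondrial UMIs, at least 10000 or at most 50000 UMIs, Cldn5 of at least 5, doublets removed or Hbb-y under 50, fell to 1 without the sinusoidal-like cells, rose to 15 against any and against low Cldn5 and to 28 for all Cldn5-high cells (0 to 8 with each library left out). The Tek interaction of −0.30 turned to 0.0031 at the Cldn5 limit of 2 and to 1.37, 1.447 and 1.57 for those comparators (−0.45 to −0.23 with each library left out). At any Cldn5, endocardial calls rose from 0 to 6 with DESeq2 and 95 with the block (0 to 52 with each library left out), and the Tek change passed at −1.93 and −1.90, and at −1.81 without library 8 (adjusted p = 0.00891 in edgeR; −2.18 to −1.61 with each library left out). At low Cldn5, calls rose from 0 (549 at an unadjusted p under 0.05) to 10 and 414 in the same fits. Against endocardial cells at any Cldn5, the 15 interaction calls were 0 with DESeq2, 1 with at most 50000 UMIs, 3 without the sinusoidal-like cells and 2 to 46 with each library left out, and the Tek value passed at 1.64 with the Cldn5 limit of 2 (1.14 to 1.48 with each library left out). For all Cldn5-high against Cldn5-low cells, 28 calls became 0 with DESeq2, 11 and 2 at Cldn5 limits of 5 and 2, 0 with at most 50000 UMIs, 13 without the sinusoidal-like cells and 8 to 84 with each library left out, and Tek missed the threshold at 1.55 with DESeq2, 1.62 at the Cldn5 limit of 5 and 1.85 with at most 50000 UMIs (1.33 to 1.72 with each library left out). The mutant minus control difference in vascular share turned to 0.01 percentage points with at least 500 genes, 0.00221 with at least 10000 UMIs, 0.0323 at the Cldn5 limit of 2 and 0.00738 with Hbb-y under 50 (−0.0537 to 0.0226 with each library left out), and the share of the gate to −0.584 with at most 50000 UMIs (−0.80 to 1.19). Genes 2-fold higher than in Cldn5-high endocardial cells, 0, were 1 with at least 500 genes, 1 at the Cldn5 limit of 5, 29 against any and 32 against low Cldn5 (0 to 2 with each library left out), and lower ones, 8, were 2 with a pseudocount of 0.5, 4 at the limit of 5, 112 and 118 (12 to 21). Against any Cldn5 the pseudocount of 0.5 gave 6 higher and 46 lower (32 to 39 and 127 to 141 with each library left out). The cause of these changes was not tested. Comparators at low Cldn5, joined Cldn5-high cells, the 50000 UMI limit and removal of the sinusoidal-like cells were chosen after seeing the data. An endocardial comparator has no bearing on the vascular share. The block for libraries 5 and 6 sets 1 library of each genotype on either side and is a split known from earlier results. The labels give the control libraries (5 and 7) and the mutant libraries (6 and 8) no replicate number in common, so no fit by replicate number was made.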

Other observations

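Of 11 genes of VEGF and Notch signalling tested in vascular cells none had an unadjusted p under 0.05 for genotype by edgeR (1.31% of all genes did). Nrp2 and the ligand Vegfb had both Tie2-cko libraries above both control libraries (13.4% of all genes did), and the Notch target Nrarp had both below (11.3%). The VEGF receptor Kdr was at 3.62 and 2.85 CP10K in control and 4.78 and 0.991 in Tie2-cko libraries, and its co-receptor Nrp1 at 1.23 and 0.62 against 1.46 and 0.485. Both were highest in library 6 and lowest in library 8. Another Notch target, Hey1, ran the other way, at 0.157 and 0.488 CP10K in control and 0.0199 and 1.0 in Tie2-cko libraries. The genotypes overlapped for Kdr, Nrp1 and Hey1.

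Genes that the study links to FOXO1 were also measured. Tcf4 was at 1.66 and 1.1 CP10K in control and 2.04 and 1.92 in Tie2-cko vascular cells, with both mutants higher (13.4% of all genes did so). Pdgfb was at 0.535 and 0.426 against 0.263 and 0.423, with both lower (11.3% of all genes), 1 of them only narrowly. Of the 11 genes of that list 4 were tested, and none had an unadjusted p under 0.05 for genotype by edgeR (1.31% of all genes did). Their median log2 fold change was −0.75 beside 0.01 over all genes. The study describes some genes as lowered and others as raised by FOXO1, so this median gives no direction for FOXO1.

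Afp UMIs occurred in 10 and 5 vascular cells of libraries 5 and 6 and in 0 and 2 of libraries 7 and 8. The hepatic list summed to 0.474, 0.159, 0 and 0.211 CP10K in vascular cells of libraries 5 to 8 and to 0.503, 0.640, 0.0451 and 0.11 CP10K in cells with high Tnnt2. Apoa1 and Apob, like Alb, had no UMI in vascular cells.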
